A study of Mus musculus with 42 samples.

Results

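Cultures of a mouse aortic endothelial cell line that had received platelets and macrophages were compared with cultures of the same line that had not. All 4 cell line cultures among the 42 samples of the series were used, and they were chosen by their labels alone. The untreated culture and the culture with 10% mouse plasma received no cells. The other 2 cultures received platelets and macrophages, one of them together with 10% plasma. Each culture gave 1 library of polyA RNA, read in 150 bp pairs, 48 hr after the additions. The line was derived from endothelial cells flushed with collagenase from the aortic intima of a mouse with Cdh5(PAC)-CreERT2 and the mT/mG reporter on a C57 background. Those cells were sorted on eGFP and immortalized with SV40 T antigen under a TetOn promoter, which was off in the experiment. It is 1 line, kept without flow, and the cultures were lysed whole, so the RNA of the added cells is part of the 2 libraries that received them. The added cells came from C57BL/6J mice, and the methods describe the macrophages as bone marrow monocytes purified by negative selection, which removes cells positive for Ly6G or Cd117 among others. The comparison asks which transcripts differ when platelets and macrophages are present, within the cultures without plasma and within those with plasma, and how many of these the line itself carries.

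Platelets are cell fragments with no nucleus that carry a small store of transcripts from their megakaryocyte parent and release chemokines, growth factors and lipid mediators on contact with a surface. Monocytes enter tissue from blood, mature into macrophages, and secrete cytokines that act on neighbouring endothelial cells. An endothelial cell answers such cytokines through the transcription factor NF-kB, with chemokines and adhesion molecules, and answers interferons through the interferon response element.

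Totals were 14662675 counts in the untreated culture, 13975145 with plasma, 14049626 with added cells alone and 16394046 with all additions. With 1 library per culture no ratio has a replicate error, and the ratios below are descriptions. The only tests are the additive fits described with the counts of all genes, where the difference between both plasma states stands in for the error. Intervals are exact 95% intervals of counting error alone. They take each count as an independent molecule, which copies made by PCR are not, so they may be too narrow even for that error. Levels are FPKM, that is counts scaled by TMM and by the effective length of the gene, and 3 counts in a library were taken as the smallest signal. In bulk RNA, fewer cells of a type and less RNA per cell cannot be told apart.

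The labelled cell type was checked first. All 21 endothelial markers listed were lower in each of the 4 cell line libraries than in 2 libraries of primary aortic endothelial cultures. Both are from the series and were read in 150 bp pairs, one an Rbfox2 control and one with Rbfox2 deleted in endothelial cells (Rbfox2 EC-KO). Levels here are scaled by library total. Another primary culture of the series, sorted on eGFP and read at a shorter length, was not used. Per the methods, the 2 primary cultures were sorted on CD31 (Pecam1) and Icam2 just before lysis, whereas the cell line cultures were lysed whole. The part of that sort in the differences was not tested. Cdh5, the endothelial cadherin, was at 1.86 to 5.75 FPKM in the line and 68.3 to 71.4 in the primary cultures. Vwf, the von Willebrand factor, was at 0.446 to 0.771 against 120 to 135, and Erg, an endothelial transcription factor, was at 0.0329 to 0.173 against 8.80 to 10.2. Pecam1, the endothelial junction molecule CD31, was present at 53.1 to 82.9 FPKM, and Icam2 at 15 to 31.6. Of 9 fibroblast markers 6 were higher in every cell line library than in both primary cultures, among them the collagen gene Col3a1 at 141 to 333 FPKM against 13 to 69.7 and the proteoglycan gene Lum at 7.93 to 108 against 0.104 to 0.961. Another 2 were lower in every cell line library, Thy1 at 0.0767 or less against 1.01 to 2.16 and Twist1 at 35.3 to 55.5 against 69.8 to 84.5. Of 12 smooth muscle contractile markers 7 were lower in every cell line library than in both primary cultures, and 1 was higher. In 14 carotid intima libraries of the series Lum was at 9.69 to 82.5 FPKM, which overlaps the line, and Col3a1 at 4.82 to 68.7, which lies below it. The cultures are therefore called the cell line below. Of the 19 endothelial markers tested, 1 was 2-fold or more higher with platelets and macrophages in both plasma states and none was lower by that rule. Over all genes the shares were 2.44% and 0.972%. Over genes that reached the filter on low counts without added cells, as all 19 did, they were 1.35% and 0.984%. The median of the mean log2 ratios of the 19 markers was 0.13.

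The ratio of each gene with platelets and macrophages to without was taken first between the cultures without plasma and then between those with plasma. These ratios share no library. Of 12352 genes tested, 302 were higher by 2-fold or more in both plasma states, which is 2.44% of them, and 120 were lower by 2-fold or more in both, which is 0.972%. Of the 302, 137 reached the filter on low counts only in the cultures with added cells, as did 155 of all genes tested, and being high there is what let them in. Over the other 12197 genes 165 were higher, which is 1.35%, and the 120 lower genes are 0.984%. Without plasma alone 689 genes were higher and 593 lower, and with plasma alone 842 were higher and 933 lower. Over the 12197 genes that reached the filter without added cells, 30.2% of the 546 that were higher without plasma were also higher with plasma, and 20.2% of the 593 that were lower were also lower with it. Over all genes tested the first share was 43.8%. The sign was the same in both states for 51.2% of genes, with a Pearson r of 0.33 and a Spearman rho of 0.055 across genes, which are not independent replicates. For scale, between the 2 replicates of each of 7 groups of carotid intima in the series, which is another tissue, 4.64% to 17.7% of genes differed by 2-fold or more, and here the shares were 10.4% without plasma and 14.4% with plasma. Those groups were taken at 48 hr, at low flow with anti-Gr1, anti-GPIba, clodronate, IgG or PBS liposomes and at high flow with IgG or PBS liposomes. When the presence of added cells and plasma were fitted together with edgeR's quasi-likelihood test, where the disagreement between both plasma states is the error and 1 residual degree of freedom remains, 16 genes were higher and 0 lower at an adjusted p under 0.05. At an unadjusted p under 0.05 there were 554 higher and 324 lower, and DESeq2 gave 136 higher and 41 lower at the adjusted threshold. At or under 3 counts in both cultures without added cells were 8 of the 16 edgeR genes and 34 of the 136 DESeq2 genes. Such genes entered these fits only by being high with added cells.

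**Figure D1:**
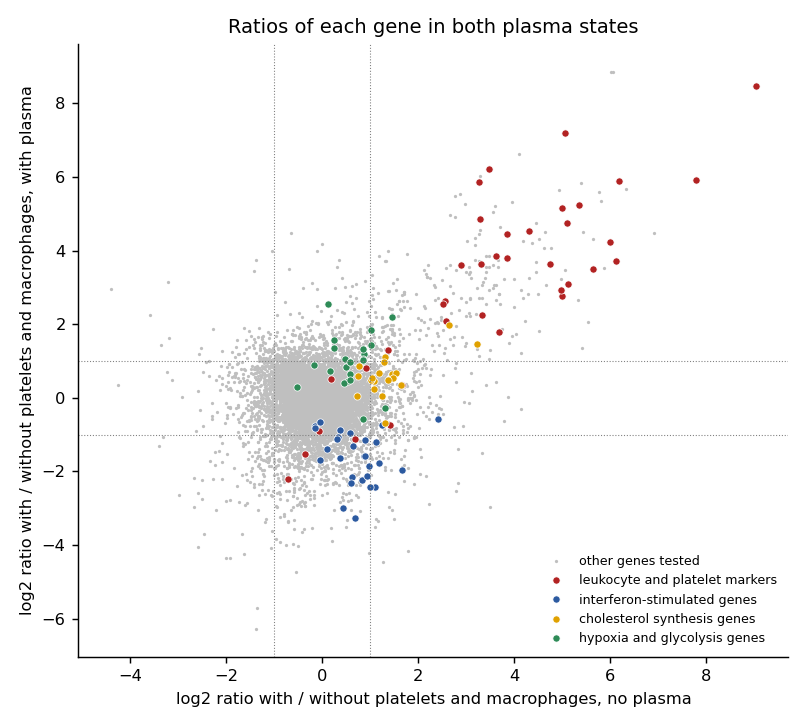
Log2 ratio of each tested gene with over without platelets and macrophages, without plasma (x axis) and with plasma (y axis), 1 library per culture, with dotted lines at 2-fold. Most leukocyte markers and 2 of the 4 platelet markers lie at the upper right, all 28 interferon-stimulated genes lie below 0 on the y axis and 24 of them above 0 on the x axis, and the correlation across all 12352 genes is 0.33.

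Several transcripts known from macrophages were at or near 0 without added cells and present in both cultures with them. Lyz2, the lysozyme gene of myeloid cells (chr10:116714390-116719377, mm9), was at 0.505 FPKM in the untreated culture, 0.386 with plasma, 344 with the added cells alone and 191 with all additions. Both cultures with added cells stood far above both without. The ratio was 682-fold without plasma (interval 331 to 1696) and 494-fold with plasma (211 to 1523). Of the 24 monocyte and macrophage markers listed, 18 passed the filter and 14 of these were higher in both states. All 14 passed only through the cultures with added cells, as did 155 of all genes tested, of which 137 were higher. None of the other 4 macrophage markers was higher, against 1.35% of genes that reached the filter without added cells. Of 12 pan-leukocyte markers that passed 10 were higher, 6 of which had passed only through the cultures with added cells. Of the other 6 pan-leukocyte markers 4 were higher, against the same 1.35%. The summed level of the 24 listed macrophage markers was 92.7 to 118.6 FPKM without added cells and 324 to 499 with them, and that of the 13 pan-leukocyte markers 209 to 262 and 296 to 410. Without Lyz2 the macrophage sum was 92.3 to 118 against 133 to 154, and without Arhgdib, which the line expressed at 202 and 252 FPKM, the pan-leukocyte sum was 7.16 to 9.20 against 49.4 to 66.2. As a summed CPM, not scaled by length, the macrophage list overlapped, at 232 to 405 against 394 to 674. Ctss, the lysosomal protease cathepsin S, had 0, 3, 408 and 335 counts, and Ptprc, which encodes the leukocyte antigen CD45, had 0, 1, 92 and 35. Csf1r, the receptor for macrophage colony-stimulating factor, had 2, 7, 253 and 130 counts. Some other listed markers were expressed by the line itself. Gpnmb was at 90.7 and 38.7 FPKM without added cells and 55.0 and 8.33 with them, Mertk at 11.6 and 8.71 against 11.1 and 4.64, and Cd14, the lipopolysaccharide co-receptor, at 12.1 and 36.1 against 22.8 and 62.8. Cd68, a lysosomal glycoprotein of macrophages, was at 3.05, 7.02, 9.99 and 9.0 FPKM, with log2 ratios of 1.66 and 0.35. None of these 4 was called.

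Leukocyte transcripts differed between the 2 cultures with added cells. Several neutrophil and granule genes were in the culture with all additions and at or near 0 in the other 3. Mpo, the myeloperoxidase of granulocyte and monocyte precursors, had 0, 0, 0 and 135 counts, and Elane, the neutrophil elastase, had 0, 0, 0 and 70. Against the culture with plasma alone that is at least 40.03-fold and at least 20.8-fold higher, with the floor of 3 counts in a library. Mmp8 had 3, 0, 5 and 129 counts and Prtn3 had 6, 1, 4 and 48. The 11 neutrophil markers in the table summed to 15, 3, 20 and 473 counts, and none passed the filter, which needs counts in 2 libraries. S100a8 and S100a9, subunits of calprotectin, had 16 and 14 counts with all additions and 1 and 2 with added cells alone, whereas Retnlg had 3 counts in each of these cultures and Camp had 1 and 0. Genes of recently released monocytes were also highest in that culture. F13a1, the A chain of coagulation factor XIII, had 0, 2, 19 and 327 counts, Chi3l3 had 0, 1, 3 and 122, and Ccr2, the receptor for Ccl2, had 0, 1, 25 and 70. Members of the macrophage list went both ways. Itgam, the integrin CD11b, had 0, 0, 60 and 316 counts, Mrc1, the mannose receptor, had 3, 0, 4 and 52, and Fcgr3, an Fc receptor, had 6, 9, 71 and 151. The reverse held for Cx3cr1, the fractalkine receptor of resident-type macrophages, with 0, 1, 35 and 1 counts, and for the complement gene C1qb with 1, 3, 94 and 45. Lymphocyte markers summed to 1, 3, 31 and 10 counts, of which Il7r made up 30 in the culture with platelets and macrophages alone. Erythroid markers summed to 2, 22, 12 and 46 counts. Of 5 dendritic cell and MHC class II genes tested, 2 were higher in both states, Cd74 and H2-Ab1. The share was 2.44% over all genes and 1.35% over those that reached the filter without added cells, as all 5 did. The highest level was that of Cd74 at 7.04 FPKM without plasma.

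**Figure D2:**
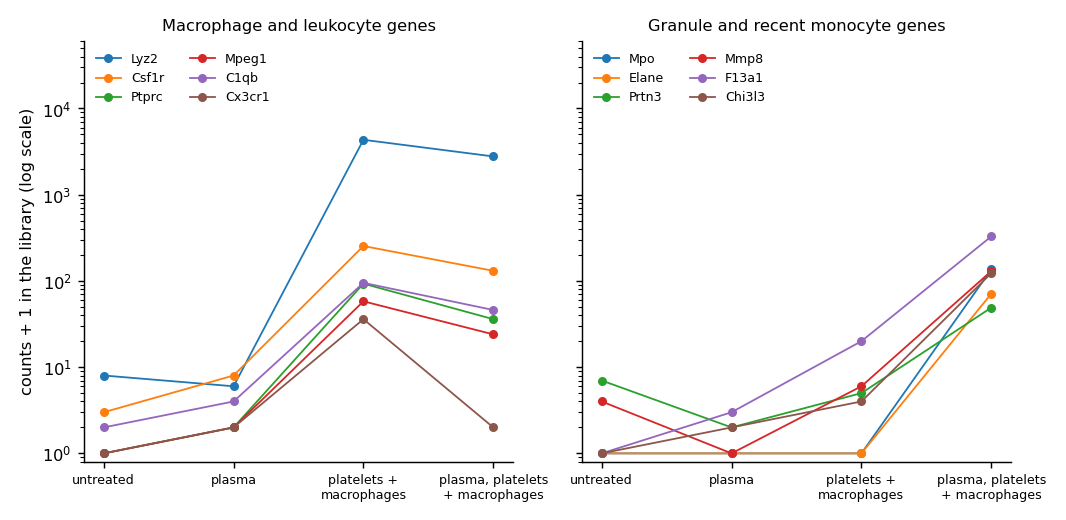
Counts plus 1 (log scale) of 6 macrophage or leukocyte genes and 6 granule or recent monocyte genes in the 4 cultures, 1 library each, with lines joining the values of a gene. The first set is higher in both cultures with added cells, except Cx3cr1, which is at 1 count with all additions, with Lyz2 at 4334 and 2777 counts, and the second set peaks in the culture with all additions, with Mpo at 135 counts there and 0 elsewhere.

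Of 4 platelet markers that passed the filter 2 were higher in both states, both having passed only through the cultures with added cells. Of all 155 genes that passed in that way 137 were higher. Neither of the other 2 platelet markers was higher, against 1.35% of genes that reached the filter without added cells. Pf4, platelet factor 4, had 1, 0, 25 and 123 counts, and Ppbp, the platelet basic protein, had 0, 2, 117 and 80. Pf4 was at least 36.5-fold higher with plasma, and Ppbp at least 42.9-fold higher without it. Most of the other 11 platelet markers were at or near 0 in all cultures or did not differ by added cells. Gp6 and Tubb1, which encode a collagen receptor and a platelet tubulin, had 0 counts in all 4 libraries, Gp9 had 0, 2, 1 and 1, and Treml1 had 0, 0, 0 and 1. Itga2b, the platelet integrin, was present in the line itself at 1.6, 3.66, 2.58 and 1.66 FPKM, where the cultures overlapped. P2ry12, an ADP receptor of platelets and of some macrophages, had 0, 0, 30 and 6 counts.

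Among sex-linked genes Xist had more counts with added cells. The line expressed Y-linked genes in every culture, with Ddx3y at 25.3, 22.4, 22.4 and 16.2 FPKM by library total, and almost no Xist, the RNA that coats the inactive X of females, with 1 and 2 counts. With platelets and macrophages Xist had 26 counts without plasma and 9 with plasma. The ratio was 28.6-fold without plasma (interval 4.70 to 1174) and 4.0-fold with plasma (0.829 to 38.1), so that the latter lies within counting error. In the primary cultures Xist was at 9.21 to 11.3 FPKM against 0.153 at most here.

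Whether the line carried a gene without added cells split the 302 higher genes. At or under 3 counts in both cultures without added cells were 88 genes, which is every tested gene at that level, since such a gene enters the test only by being high with added cells. Together these 88 were at a summed CPM of 2.11 and 4.44 without added cells, 309 with added cells alone and 507 with all additions. A further 76 genes were at 1 FPKM or more in both cultures without added cells, and 138 lay between. The 76 were at a summed CPM of 3044 and 6107 without added cells and 8091 and 24360 with them. Of these 76, 64 had no overlap between the cultures with and without added cells, and their mean log2 ratios ran from 1.14 to 4.21. Of the 120 lower genes 66 were at 1 FPKM or more in both cultures without added cells, and 33 of these had no overlap. A call already fixes the order of the cultures within each plasma state. The share without overlap over all genes tested is not given, so these counts only describe the called genes. Whether the higher level of a gene that the line also expresses comes from the line or from the added cells cannot be told apart in these libraries.

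Of the 10 genes with the largest smaller ratio, all were at 0.505 FPKM or less in both cultures without added cells, so that a rank by ratio favours genes near 0 there. After Lyz2 came Lcn2, the iron-binding protein lipocalin 2, with 0, 0, 122 and 999 counts, or 0, 0, 12.5 and 88.4 FPKM, which is at least 44.8-fold higher without plasma and at least 296-fold higher with it. Ccl6, a chemokine of macrophages, was at 0.0510, 0.164, 10.0 and 124 FPKM. Msr1, a scavenger receptor, was at 0, 0.0274, 3.75 and 4.73 FPKM, and C5ar1, the receptor for complement C5a, at 0, 0, 3.10 and 2.73. Ncf1, a subunit of the phagocyte oxidase, was at 0, 0, 2.90 and 2.07 FPKM, and the lectin gene Clec4n at 0, 0, 5.16 and 7.07. Laptm5, a lysosomal membrane protein of leukocytes, was at 0.146, 0.0939, 8.31 and 5.71. Lilrb4 was at 0.0517, 0.0554, 12.6 and 8.18 FPKM, and its near-identical, overlapping neighbour Gp49a at 0, 0, 2.81 and 2.54, so that reads may be split between them.

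Of 11 chemokine genes tested, 5 were higher in both states and none lower, of which Cxcl2 and Cxcl5 passed the filter only through the cultures with added cells. The other 3, Cxcl1, Ccl2 and Ccl7, were over 1 FPKM in the line without added cells, and are 3 of the 9 chemokine genes that reached the filter in a culture without added cells, against 1.35% of all such genes. Cxcl1, which attracts neutrophils (chr5:91320267-91322141, mm9), was at 15 FPKM untreated, 9.05 with plasma, 123 with added cells alone and 175 with all additions. The ratio was 8.16-fold without plasma (interval 6.99 to 9.57) and 19.4-fold with plasma (15.9 to 23.8). Ccl2, which attracts monocytes, was at 6.67, 2.77, 46.7 and 89.5 FPKM, and its neighbour Ccl7 at 4.24, 1.94, 32.3 and 99.9. For all of these both cultures with added cells lay above both without. Cxcl2 was at 0.35, 0.30, 2.40 and 2.67 FPKM and Cxcl5 had 0, 1, 10 and 25 counts. Cxcl12, the most abundant of the list at 5238 FPKM untreated, was at 4167, 5173 and 2700 in the other cultures, and Ccl5, Csf1, Cx3cl1, Cxcl10 and Cxcl16 also missed the 2-fold rule. The summed FPKM of the macrophage and pan-leukocyte markers given above, with and without Lyz2 and Arhgdib, was higher in the same 2 libraries, the summed CPM of the macrophage list overlapped, and their part in these ratios was not tested.

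Cxcl1 and Cxcl2 carry the NF-kB letters GGGA and TTCC, with any 2 bases between, within 300 bases around their start. Their promoters are shown because both genes hold these letters and were higher in both states. For Ccl2, Ccl7 and Cxcl5, also higher in both, no match was found. Only 10 of the 18 listed chemokine genes had a promoter to search. These windows run from 250 bases before to 50 bases after the start, from RefSeq on GRCm38.p6, and capitals mark the letters, which overlap here on both strands. Of all 27018 promoters of this kind 1.43% hold them, as did 4 of the 10 chemokine genes with a promoter, namely Cxcl1, Cxcl2, Cxcl10 and Csf1, of which the last pair missed the 2-fold rule. Of the 53 genes with a promoter that were higher and at 1 FPKM or more without added cells, 1 held them, Cxcl1 itself, which is 1.89%. Of 10 NF-kB feedback genes with a promoter 1 held them, Nfkbia. A match of letters is a description and not a bound site.
Cxcl1, chr5:90890995-90891294, plus strand: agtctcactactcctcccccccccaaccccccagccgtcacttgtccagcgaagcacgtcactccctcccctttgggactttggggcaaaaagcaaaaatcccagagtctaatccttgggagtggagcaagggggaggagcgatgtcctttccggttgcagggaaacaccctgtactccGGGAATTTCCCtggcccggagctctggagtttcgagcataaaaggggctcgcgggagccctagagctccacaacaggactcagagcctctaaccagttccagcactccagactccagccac
Cxcl2, chr5:90903649-90903948, plus strand: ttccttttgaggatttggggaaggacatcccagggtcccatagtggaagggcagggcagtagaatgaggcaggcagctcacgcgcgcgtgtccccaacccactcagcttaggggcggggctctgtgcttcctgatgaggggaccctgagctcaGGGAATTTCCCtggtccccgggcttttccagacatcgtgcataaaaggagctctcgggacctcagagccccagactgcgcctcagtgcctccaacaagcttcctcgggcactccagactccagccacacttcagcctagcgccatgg

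Of 13 NF-kB feedback genes, which encode inhibitors and subunits of that pathway, 2 were higher in both states and none was lower. Over all genes the shares were 2.44% and 0.972%, and over those that reached the filter without added cells, as all 13 did, 1.35% and 0.984%. Nfkbiz, the inducible cofactor I-kB zeta, was at 8.49, 18.9, 40.6 and 82.8 FPKM, a ratio of 4.78-fold without plasma (interval 4.31 to 5.31) and 4.38-fold with plasma (4.08 to 4.70). Bcl3, an atypical I-kB, was at 1.64, 5.51, 9.91 and 33.1 FPKM. Nfkbia, the classical inhibitor, was at 66.7, 56.0, 100.7 and 113 FPKM and did not reach 2-fold without plasma, and Tnfaip3 had log2 ratios of 0.45 and 0.78. The median of the list was 0.17. Of 8 endothelial adhesion molecules tested, 1 was higher, the hyaluronan receptor Cd44 at 17.3, 23.8, 39.8 and 51.4 FPKM. Vcam1 was at 899, 829, 1291 and 436 FPKM, higher with added cells without plasma and lower with plasma, and Icam1 at 15.8, 13.3, 22.5 and 12. Sele, E-selectin, was at 0.62, 0.61, 1.08 and 3.06, and Selp, P-selectin, at 33.1, 92.5, 53.1 and 119.

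Some single genes that the line expressed had large ratios, and those named here besides Spp1, Postn, C3 and the cytokines were chosen after their values were seen. None of the 14 genes on the matrix list was called. Spp1, the secreted phosphoprotein osteopontin (chr5:104864137-104870069, mm9), was at 43.5, 933, 599 and 8661 FPKM. It was 13.8-fold higher without plasma (interval 12.8 to 14.8) and 9.29-fold with plasma (9.14 to 9.44), but plasma alone lay above added cells alone, so the cultures overlapped. Ptgs2, the inducible cyclooxygenase of prostaglandin synthesis, was at 1.32, 3.00, 14.4 and 35.4 FPKM, or 11-fold and 11.8-fold higher with no overlap. Ptgs1, the other cyclooxygenase, was at 3.64, 57.2, 12.9 and 190 FPKM, where plasma alone again lay above added cells alone. Tll1, a protease that processes procollagen, was at 1.02, 2.82, 6.93 and 20.6 FPKM. Lox, which crosslinks collagen and elastin, was at 62.5, 57.1, 160 and 226, and Has2, a hyaluronan synthase, at 2.75, 3.46, 8.44 and 12.8. Postn, the matrix protein periostin, was at 3.03, 3.87, 34.1 and 8.10 FPKM, with a far larger ratio without plasma. Complement C3 was at 1.03, 0.58, 5.96 and 5.6. Prl2c2, a proliferin, had 2, 220, 34 and 16137 counts, and its near copies Prl2c3 and Prl2c4 had 13 and 42 counts with plasma alone and 40 and 897 with all additions, so that the split between copies is uncertain. Of 9 macrophage cytokine genes tested 7 were higher and none lower, of which Ccl3, Ccl6, Il1rn and Il6 passed the filter only through the cultures with added cells. The other 3 are 3 of 5 that reached the filter without added cells, against 1.35% of all such genes. Ccl3 and Il1rn were at 0.146 FPKM or less in both cultures without added cells, and Il1a, Il1b and Tnf at 0.30 FPKM or less in every culture. Il6 was at 0.56, 0.22, 2.00 and 2.13 FPKM, on 8, 3, 26 and 32 counts.

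**Figure D3:**
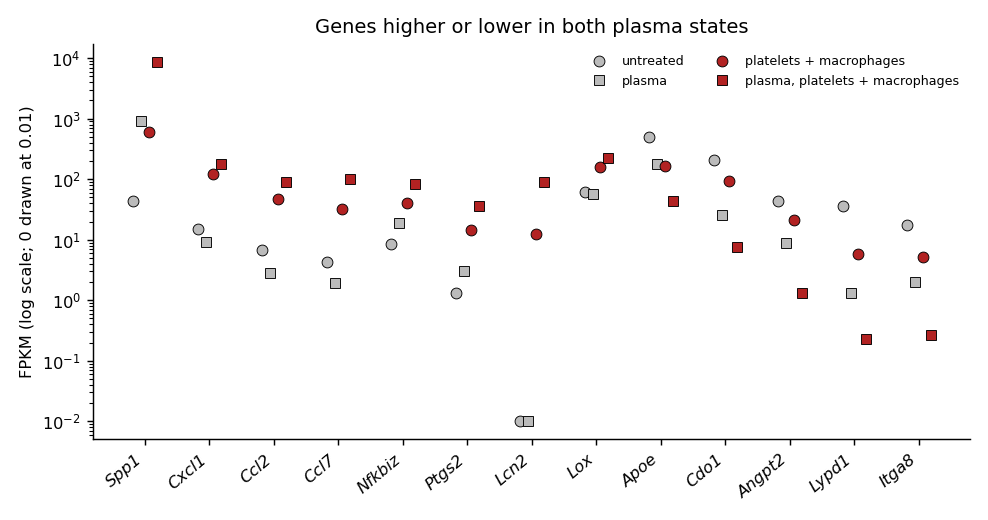
Levels in FPKM (log scale) of 13 genes in the 4 cultures, 1 library each, with grey symbols for cultures without and red for cultures with platelets and macrophages, circles without and squares with plasma, and 0 drawn at 0.01. Cxcl1, Ccl2, Ccl7 and Ptgs2 are higher in both red symbols than in both grey ones, whereas Spp1 overlaps, and Apoe is lower in both red symbols.

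Genes of endothelial growth and arterial fate were divided. Of 18 tested, 4 were higher in both states and 1 was lower. Over all genes the shares were 2.44% and 0.972%, and over those that reached the filter without added cells, as all 18 did, 1.35% and 0.984%. Notch4 was at 0.572, 0.852, 1.61 and 4.65 FPKM, Esm1, an endothelial proteoglycan, at 1.68, 5.11, 9.15 and 21.6, and Gja4, the gap junction protein connexin 37, at 15.7, 22.9, 37.7 and 87.6. Nrp2 was the other higher gene, at 0.638 FPKM at most. Angpt2, a ligand of the Tie2 receptor, was lower, at 43.6, 8.78, 20.9 and 1.32 FPKM, where plasma alone lay below added cells alone. Dll4, the arterial Notch ligand, was at 0.32 FPKM or less throughout.

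In 9 of the 10 named genes that were lower with platelets and macrophages, all but Pllp, the culture with all additions held the lowest level. Apoe, the apolipoprotein of cholesterol transport (chr7:20281458-20284515, mm9), was at 501 FPKM untreated, 180 with plasma, 166 with added cells alone and 43.0 with all additions. Its log2 ratios were −1.6 and −2.06. Lypd1 was at 36.7, 1.30, 5.73 and 0.231 FPKM, Gpm6a at 28.1, 2.94, 7.87 and 0.747, Fam180a at 32.8, 7.39, 8.60 and 0.997, and Itga8, an integrin of mesenchymal cells, at 17.3, 2.04, 5.18 and 0.267. In these 4 genes plasma alone lay below added cells alone. Gdpd2 was at 18.3, 11.1, 4.50 and 0.486 FPKM, Nrgn at 9.41, 3.81, 1.89 and 0.983, Chdh, a choline dehydrogenase, at 2.03, 1.05, 0.347 and 0.0578, Pllp at 2.27, 2.14, 0.333 and 0.396, and the proteoglycan gene Fmod at 1.26, 2.36, 0.294 and 0.0693. In these 5 both cultures with added cells lay below both without. Msmp had 101, 10, 10 and 0 counts and thus overlapped. Among list members Adamts5, a protease that cleaves aggrecan, was also lower, at 12.5, 7.71, 4.91 and 2.78 FPKM. By the same rule 228 genes were higher and 331 lower with plasma in both states of added cells, a comparison that uses the same 4 libraries.

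Interferon-stimulated genes differed between the plasma states. Without plasma 24 of 28 were higher with platelets and macrophages, 6 of them by 2-fold or more, against 5.58% of all genes. With plasma all 28 were lower, 21 of them by 2-fold or more, against 7.55% of all genes. The medians of their log2 ratios were 0.66 and −1.58, and none was called in both. Ifit3, an antiviral protein (chr19:34658021-34663221, mm9), was at 311 FPKM untreated, 355 with plasma, 497 with added cells alone and 37.1 with all additions. The culture with all additions lay below the other 3. Irf7, a transcription factor of the interferon response, was at 70.5, 84.8, 125 and 18 FPKM, and Ifit1 at 175, 328, 269 and 73.6. The 3 smallest drops with plasma were those of Zbp1, Ifih1 and Oasl1, with log2 ratios of −0.57, −0.67 and −0.73. The 9 MHC class I genes, which the same signal controls, had medians of 0.19 and −1.01 and were lower with plasma throughout, among them Psmb9 at 46.9, 43.9, 48.3 and 11.8 FPKM. Of 16 lysosome genes 4 were lower by 2-fold or more with plasma, and the medians were 0.10 without plasma and −0.53 with it.

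Promoters of 2 of these genes are shown because they hold the interferon response letters, GAAA, any 2 bases and GAAA, on the other strand here, in capitals. Of 20 listed interferon-stimulated genes with a RefSeq promoter, 11 held these letters on either strand, against 3.49% of all promoters. No cholesterol synthesis promoter held the sterol letters TCACNCCAC, of 11 found, which says only that these letters are not in the window.
Ifit3, chr19:34583279-34583578, GRCm38.p6, plus strand: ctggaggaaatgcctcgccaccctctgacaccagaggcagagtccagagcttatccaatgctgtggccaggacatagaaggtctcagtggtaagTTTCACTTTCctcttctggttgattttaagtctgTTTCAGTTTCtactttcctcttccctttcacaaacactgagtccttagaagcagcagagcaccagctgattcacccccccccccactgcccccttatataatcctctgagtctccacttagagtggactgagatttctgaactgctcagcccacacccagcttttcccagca
Rsad2, chr12:26456403-26456702, GRCm38.p6, minus strand: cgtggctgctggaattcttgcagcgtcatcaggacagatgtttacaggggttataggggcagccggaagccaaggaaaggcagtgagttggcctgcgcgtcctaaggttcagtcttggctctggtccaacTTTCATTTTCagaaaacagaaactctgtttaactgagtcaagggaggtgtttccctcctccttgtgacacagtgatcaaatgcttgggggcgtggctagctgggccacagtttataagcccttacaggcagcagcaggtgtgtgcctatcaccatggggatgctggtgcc

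Cholesterol synthesis genes and hypoxia and glycolysis genes had positive medians in both states. Of 19 cholesterol synthesis genes, 18 had a higher level with platelets and macrophages in both states, against 25.9% of all genes. In 3 of the 19 the ratio reached 2-fold in both, against 2.44% of all genes and 1.35% of those that reached the filter without added cells. The medians were 1.29 without plasma and 0.54 with plasma. Fdps, a farnesyl diphosphate synthase, was one of the 3, at 103, 76.3, 255 and 165 FPKM. Insig1 was the 1 gene of the 19 not higher in both states, at 49.8, 86.8, 123 and 53.9 FPKM. Of 22 hypoxia and glycolysis genes, 18 were higher in both states and 3 reached 2-fold in both, namely the glucose carrier Slc2a1 at 18.5, 21.4, 37.5 and 77.7 FPKM, the lactate carrier Slc16a3 at 12.2, 28.2, 33.6 and 129, and the prolyl hydroxylase Egln3 at 4.51, 12.2, 9.12 and 33.3. Gapdh was at 1105, 1927, 1981 and 4031 FPKM and Pgk1 at 203, 347, 367 and 877, which puts the culture with all additions highest for all 5. Of 22 mitosis genes 18 were also higher in both states, but the median was 0.28 and none reached 2-fold, and the 22 DNA replication genes had a median of −0.035 with none called.

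**Figure D4:**
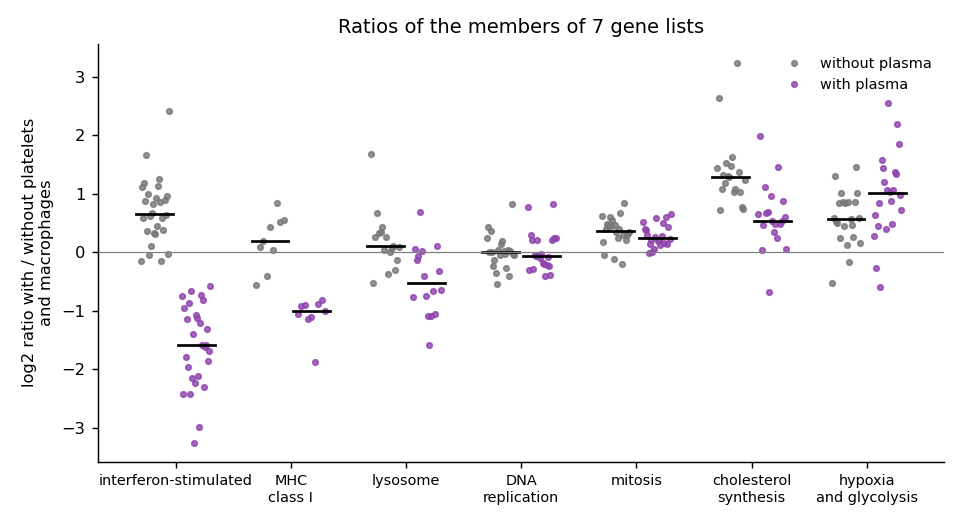
Log2 ratios with over without platelets and macrophages of the tested members of 7 gene lists, without plasma (grey) and with plasma (purple), with a bar at each median. Interferon-stimulated genes have medians of 0.66 and −1.58, and cholesterol synthesis genes of 1.29 and 0.54.

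The remaining lists held few called genes, to be read against 2.44% of all genes higher and 0.972% lower. Over genes that reached the filter without added cells these shares were 1.35% and 0.984%. Of 18 TGF-beta and BMP response genes 2 were higher, Ltbp2, a microfibril protein, at 4.03, 1.22, 17.7 and 13.8 FPKM, and Postn, described above. Of 11 complement genes 3 were higher, C3, Cfp and C5ar1, the last with 0 counts in both cultures without added cells. Of 13 matrix proteases and inhibitors 1 was higher, the macrophage elastase Mmp12 at 0, 0, 4.69 and 0.83 FPKM, which like C5ar1 passed the filter only through the cultures with added cells, and 1 lower, Adamts5. Timp1, an inhibitor of these proteases, was at 43.6, 49.5, 69.4 and 264 FPKM. Of 13 immediate early genes 1 was higher, Fosl1, a subunit of AP-1, at 2.53, 10.0, 7.02 and 39.9 FPKM. Of 11 cholesterol efflux genes Apoe alone was called. No gene was called among 22 splicing regulators, where Rbfox2 was at 8.0, 7.56, 7.57 and 11.5 FPKM, nor among 14 matrix, 10 YAP and TEAD target, 12 p53 target, 16 unfolded protein and amino acid stress, 11 NRF2, 9 coagulation, 9 smooth muscle, 8 fibroblast and 4 sex-linked genes.

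In 2625 genes, 21.3% of those tested, the ratio with plasma and that without differed by 2-fold or more, 1341 of them with the higher ratio with plasma and 1284 with the higher ratio without. The largest such differences in the first direction were at Gm15450, Gm15772 and Gm12191, which are annotated as pseudogenes, so that reads of their parent genes may be counted there. Gm15450 was at 210, 29.7, 9.50 and 233 FPKM. The next were Ret, a receptor tyrosine kinase, with 15, 5, 8 and 171 counts, and Adcy1, an adenylate cyclase, with 9, 13, 2 and 222. In the other direction Tmem178 was at 0.255, 3.45, 3.79 and 0.364 FPKM, with log2 ratios of 3.50 and −2.97, and Fam189a2 was at 4.52, 5.40, 9.0 and 0.235. Gm12250, AI317395 and 9130409I23Rik were the others, at 0.147, 0.0495 and 0.179 FPKM with all additions and 3.56, 2.20 and 1.41 with plasma alone.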

How the data were processed

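The authors mapped 150 bp reads with STAR 2.5.1b and estimated expression with RSEM 1.2.15 on mm9, per the labels and the methods. They deposited one table of expected counts per gene and library, not normalized, and RPKM values for the same libraries, with a length and an effective length in bases (other values) for each gene. Expected counts were rounded. The table has 21675 rows, 1 of which has no gene name and was left out, with 0.117% of counts at most. Of its 206 columns of values 180 were not used.

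Genes with low counts were removed with the default filter of edgeR 4.0.16 (R 4.3.3), with cultures with and without added cells as groups. Libraries were scaled by TMM, and ratios were taken on log2 CPM with a prior count of 2. A gene was called when both ratios were 2-fold or more in 1 direction. FPKM values use these counts, the effective length and the scaled total. Alternatives were library totals, DESeq2 1.42.0 size factors, a prior count of 0.5, the deposited RPKM as log2(value + 0.1), other filters and folds, and additive fits of edgeR and DESeq2 with Benjamini-Hochberg adjustment. Intervals of ratios are exact conditional binomial intervals (scipy 1.17.1 in Python 3.11.15). The script that makes the calls was tested on simulated data. Named genes were the 10 higher and 10 lower genes with the largest smaller ratio at 1 FPKM or more in the 2 libraries where higher, the 5 in each direction whose ratios differed most between plasma states at 1 FPKM or more in a library, and list members. Ptgs1, Ptgs2, Tll1, Lox, Has2, Prl2c2, its near copies and Gp49a lie outside this rule and were chosen after their values were seen. Members and lists were chosen with earlier results of these data known. Genome coordinates were looked up by symbol in GENCODE vM1 on NCBIM37, the assembly of mm9, and promoters in RefSeq on GRCm38.p6. Some list members are counted but not reported here by name.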

Additional observations from a re-analysis of the deposited data

Results flagged for a closer look

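The effect of platelets and macrophages had opposite signs in the 2 plasma states at the following genes, and none of these differences was tested, since each state has 1 library with and 1 without added cells. The log2 ratio with plasma minus that without was 7.36 at Gm15450, 6.35 at Gm15772, 5.82 at Gm12191, 5.13 at Ret and 5.12 at Adcy1. It was −6.47 at Tmem178, −5.96 at Gm12250, −5.72 at AI317395, −5.32 at 9130409I23Rik and −5.21 at Fam189a2. For the 28 interferon-stimulated genes the median of this difference was −2.39, and 24 of the 28 had opposite signs in both states.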

How the results depend on the processing

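No paired analysis was possible because each culture has 1 replicate number, other than the additive fits below, which hold plasma state as a block. Library totals, DESeq2 size factors, the prior count of 0.5, the deposited RPKM and a mean CPM of 1 or more kept every count of genes within 1.5 times. Without a filter on low counts 471 genes were higher, 189 lower and 4070 differed with plasma. With the ratio without plasma alone the numbers were 689 and 593, and with plasma alone 842 and 933. At 1.5-fold there were 532 and 392 genes. Asking for no overlap between cultures left 73 lower genes. The additive fit of edgeR gave 16 higher and 0 lower genes, all 16 of them among the 302, and that of DESeq2 gave 136 and 41, of which 124 and 25 were among the 302 and the 120. Among genes at 1 FPKM or more in both cultures without added cells, a choice made after seeing the data, 76 were higher and 66 lower. Under the 4 changes of scale, 115 of 132 list medians moved by less than the SD of their values in both plasma states and 17 by more. That SD is taken over 2 medians and is widest where the plasma states differ most, at 1.58 for the interferon-stimulated genes. Such lists could hardly move beyond it. Of 33 medians, 31 to 33 kept their sign. The exceptions, under library totals and RPKM, were the coagulation list and the list of matrix proteases and inhibitors. Ratios of named genes kept their sign in all 120 alternative values, and 4 moved beyond counting error, all with RPKM. Each culture is 1 library, and genes at 3 counts or fewer without added cells have ratios that are bounds or have wide counting intervals.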
